A study of Mus musculus with 8 samples.

Results

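The cytokine genes Tnf, Il1a, Il1b, Il1rn, Il18, Lif, Osm, Csf1 and Tgfb1 were followed by symbol in a table of 24421 genes from mouse bone marrow-derived macrophages, over all 8 libraries. All 9 were in the table, and all 9 passed the filter on low values used for testing (1 CPM or more in no fewer than 2 libraries, CPM being a gene's reads scaled to a fixed total per library). There were 4 groups of 2 libraries. Wild-type macrophages (WT) were taken at day 0, and wild-type macrophages were taken after 2 days with TNF protein at 40 ng/ml. Macrophages of Rbpj flox/flox mice carrying LysMCre (KO), in which the gene of the transcription factor RBP-J is deleted by a Cre recombinase made in myeloid cells, were taken at the same 2 points. The wild-type mice's alleles, whether they carried LysMCre, and the animals' strain, age and sex are not given in the sources used here. No group was cultured for 2 days without TNF, so the effect of TNF and that of time in culture cannot be told apart. Poly-A RNA was sequenced, and the study describes 2 independent experiments without saying how the animals were divided between them. The p-values below therefore measure the spread between these libraries, which may be technical in part. RBP-J is the DNA-binding factor through which Notch receptors act, and the series asks how it bears on the macrophage's response to TNF.

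Cytokines of macrophages pass inflammatory signals on to neighbouring cells and back to the macrophage itself. TNF is made as a membrane protein and shed by a protease. IL-1α and IL-1β act through one receptor, which the antagonist encoded by Il1rn occupies without signalling, and IL-1β and IL-18 are made as precursors that inflammatory caspases cut. LIF and oncostatin M (Osm) belong to the IL-6 family and share the signalling chain gp130, M-CSF (Csf1) is the growth factor on which macrophages and osteoclast precursors depend, and TGF-β1 (Tgfb1) is secreted in a latent form. TNF is also known to turn macrophages towards osteoclasts, the bone-resorbing cells, and RBP-J is known to restrain this.

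The promoters shown are those of the 4 cytokine genes whose levels passed limma between study groups below, with or without the replicate block. They are shown because the factor deleted in the KO cells and the NF-kB factors that TNF activates both bind short DNA words. Each runs 5′ to 3′ on the gene's strand, from 250 bases before to 50 bases after the RefSeq start (RefSeq, GRCm38.p6). Capitals mark the letters TGGGAA or their reverse complement TTCCCA, the core of the word RBP-J binds, and the NF-kB pattern, GGGA followed by any 4 bases and CC, or its reverse complement. The windows are chr11:4257318-4257617 (plus strand) for Lif, chr2:129309923-129310222 (minus strand) for Il1a, chr17:35201958-35202257 (minus strand) for Tnf and chr9:50554450-50554749 (plus strand) for Il18.
Lif: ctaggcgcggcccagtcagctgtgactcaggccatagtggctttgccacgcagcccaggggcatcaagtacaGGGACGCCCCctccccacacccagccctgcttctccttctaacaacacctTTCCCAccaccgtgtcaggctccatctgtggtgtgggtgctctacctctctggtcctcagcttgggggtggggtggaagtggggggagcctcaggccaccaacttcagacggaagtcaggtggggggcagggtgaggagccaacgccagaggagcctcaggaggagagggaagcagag
Il1a: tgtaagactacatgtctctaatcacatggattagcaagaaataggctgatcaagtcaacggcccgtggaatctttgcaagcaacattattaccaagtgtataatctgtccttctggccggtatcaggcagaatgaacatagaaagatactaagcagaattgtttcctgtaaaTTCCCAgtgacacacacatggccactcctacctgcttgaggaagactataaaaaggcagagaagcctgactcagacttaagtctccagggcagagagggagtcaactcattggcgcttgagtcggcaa
Tnf: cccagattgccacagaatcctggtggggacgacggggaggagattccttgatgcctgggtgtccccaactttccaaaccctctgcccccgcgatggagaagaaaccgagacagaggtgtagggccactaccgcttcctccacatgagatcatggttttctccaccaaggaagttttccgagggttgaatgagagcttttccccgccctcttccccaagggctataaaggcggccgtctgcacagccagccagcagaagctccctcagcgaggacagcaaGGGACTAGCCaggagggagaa
Il18: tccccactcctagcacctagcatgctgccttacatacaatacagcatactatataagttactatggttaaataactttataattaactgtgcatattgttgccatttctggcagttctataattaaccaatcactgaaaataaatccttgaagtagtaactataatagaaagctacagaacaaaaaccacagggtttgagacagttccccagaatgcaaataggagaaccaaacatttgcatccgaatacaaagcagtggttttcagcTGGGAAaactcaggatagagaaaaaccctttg

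In the Lif window TTCCCA begins 128 bases before the start and GGGACGCCCC begins 178 bases before it. In the Il1a window TTCCCA begins 78 bases before the start. The Tnf window holds GGGACTAGCC, at position 30 when the start is counted as 1, and no TGGGAA in either direction. The Il18 window holds TGGGAA at position 19. Such letters are common: TGGGAA or its complement is present in 25.6% of the 32851 RefSeq promoter windows of this length, and the NF-kB pattern in 20.7%. The AP-1 word TGANTCA, found on either strand in 7.81% of windows and left in lower case above, occurs as TGACTCA in the Lif window, 228 bases before the start, and in the Il1a window, 12 bases before it. A match describes the letters of the window and does not show that a factor binds there. Among the other members with an entry, Il1b and all 3 Il1rn starts have the RBP-J core, whereas Csf1, Tgfb1 and 1 of the Il1rn starts have the NF-kB pattern. Osm had no entry.

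The genes lie, in GRCm38 with GENCODE M21 annotation, on 6 chromosomes, and all 9 are protein coding. Il1a (ENSMUSG00000027399.1, chr2:129299610-129309972, minus strand) and Il1b (ENSMUSG00000027398.13, chr2:129364570-129371139, minus strand) are 54597 bases apart, and Il1rn (ENSMUSG00000026981.15, chr2:24336853-24351494, plus strand) lies elsewhere on the same chromosome. Osm (ENSMUSG00000058755.3, chr11:4236420-4241026, plus strand) ends 16530 bases before Lif begins (ENSMUSG00000034394.14, chr11:4257557-4272514, plus strand). Tnf is ENSMUSG00000024401.14 (chr17:35199381-35202007, minus strand) and Il18 is ENSMUSG00000039217.13 (chr9:50554827-50581840, plus strand). Csf1 is ENSMUSG00000014599.10 (chr3:107741048-107760469, minus strand) and Tgfb1 is ENSMUSG00000002603.15 (chr7:25687002-25705077, plus strand). The exons of Il1a overlap the opposite-strand gene Gm14023 over 222 bases and those of Il1b overlap Il1bos over 25 bases. Whether the counting used strand is not given in the sources used here, so reads of such partners cannot be told apart.

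The libraries held 9855859 to 35653203 reads in genes, the 2 KO TNF libraries being the shallowest. Rbpj was at 178 to 226 CPM in the 4 WT libraries and 21.4 to 38.9 CPM in the 4 KO libraries, with no overlap. All 9 macrophage markers examined had at least 3 reads in every library. Their summed level was 5038 to 9488 CPM, although Lyz2, which has a near-identical copy, was only at 7.25 to 102 CPM. The osteoclast markers summed to 128 to 200.4 CPM in the 4 day 0 libraries, 4898 to 6554 CPM in WT after TNF and 18466 to 43963 CPM in KO after TNF. Differences below are in log2(CPM + 0.5), tested with limma over 12194 genes with Benjamini-Hochberg adjustment over all of them, and a gene is said to have risen or fallen when the adjusted p is under 0.05. The results of 2 fits are given: one by group alone, fixed as the principal test, and one that adds the replicate number as a block, since libraries with the same number deviated together in every pair of groups (r across genes 0.577 to 0.805). In bulk RNA, fewer cells of a type and less RNA per cell cannot be told apart.

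Per kilobase of exon, which allows genes to be compared, the 9 cytokine genes spanned more than 3 orders of magnitude. In 6 of 8 libraries Tgfb1 was the highest, from 32.4 to 100.2 CPM per kb in those libraries. Il1rn led in the remaining libraries, replicate 2 of WT after TNF at 119.8 CPM per kb and replicate 2 of KO after TNF at 51.9 CPM per kb. Tnf, Il18 and Il1rn followed at day 0, at 8.69 to 31.8 CPM per kb, and their order differed between the libraries of a group. Osm and Csf1 lay lower, at 2.01 to 4.12 and 0.478 to 2.64 CPM per kb at day 0. Il1a, Il1b and Lif filled the last 3 ranks in 3 of the 4 day 0 libraries. In replicate 2 of KO at day 0, Il1b ranked 5 at 6.83 CPM per kb, Il1a was at 1.89 CPM per kb and Lif was listed with 0 reads. After TNF, Lif reached ranks 4 and 5 in the KO libraries, at 8.91 and 7.13 CPM per kb, and stayed at 1.52 and 0.907 CPM per kb in WT.

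**Figure D1:**
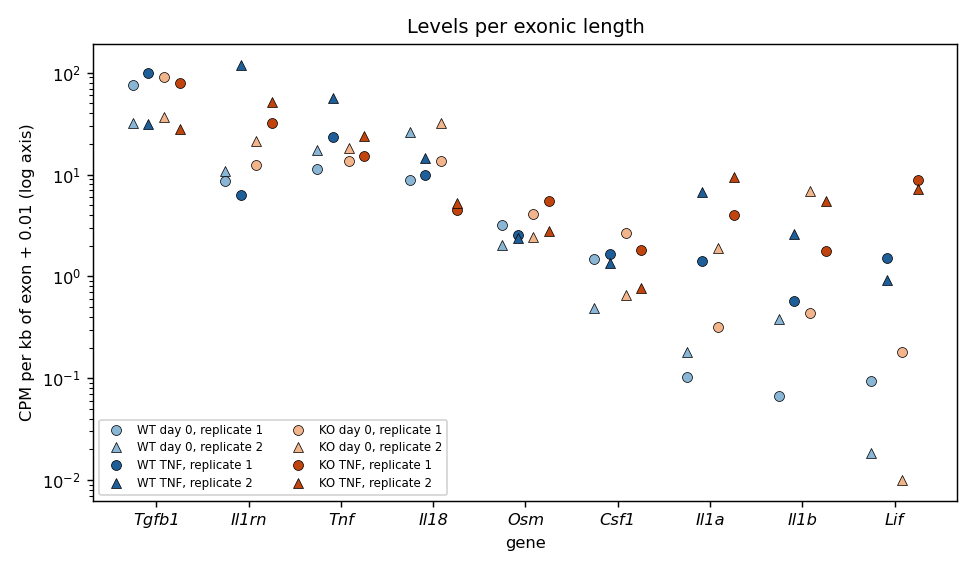
Level of each cytokine gene in CPM per kb of exon plus 0.01, on a log axis, with 1 point per library; colours give the 4 groups and symbols the replicate number. Lif in the KO TNF libraries, at 8.91 and 7.13 CPM per kb, stands above its level in all other libraries, and Tgfb1 is the highest gene in 6 of 8 libraries.

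The first comparison asks what 2 days with TNF did in WT macrophages. Lif, Il1a and Tnf rose with the replicate block, by 3.05, 3.16 and 1.37 on the log2 scale, and no member fell. By group alone, none of the 9 passed, against 1.18% of all genes tested. With the block 3 of 9 rose and 0 fell, against 5.54% of all genes higher and 4.71% lower, and the median difference of the 9 was 1.37 beside -0.12 for all genes tested (-0.01 in edgeR with the block, whose scaling differs). The TNF and day 0 libraries did not overlap for 4 of the 9 genes (Tnf, Il1a, Il1b and Lif, all higher), as for 14.8% of all genes in the higher direction.

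In KO macrophages the same 2 days brought the largest difference of any member in any comparison between groups, a rise of Lif by 5.48 on the log2 scale. Lif was the only member that passed by group alone, 1 of 9, against 3.09% of all genes higher and 2.01% lower. With the block Lif and Il1a rose and Il18 fell, against 12.2% of all genes higher and 13.7% lower. The members' median difference was 0.29, beside -0.10 for all genes. The KO TNF and day 0 libraries did not overlap for 3 members in the higher direction (Il1a, Il1rn and Lif) and 1 in the lower (Il18). Of all genes 20.4% lay higher without overlap and 25.2% lower. Both TNF comparisons use separate day 0 libraries, but they share replicate numbers.

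Further comparisons set KO against WT. At day 0 no member passed in either fit. Over all genes the share was 0% by group alone, with 164 genes at an unadjusted limma p under 0.05, and 0.0082% with the block, with 729. edgeR called 0 genes by group alone, and DESeq2 called 24, none of them a member. The KO and WT day 0 libraries did not overlap for 3 members (Il1a, Il1b and Il1rn, all higher in KO), as for 9.86% of all genes in the higher direction. After TNF no member passed by group alone, against 0.0082% of all genes (1372 at an unadjusted p under 0.05, with 0 genes called by edgeR and 593 by DESeq2, none a member). With the block Lif alone was higher in KO, 1 of 9, against 5.53% of all genes higher and 3.75% lower. The KO and WT TNF libraries did not overlap for 2 members higher in KO (Lif and Osm) and 1 lower (Il18), as for 18.8% and 16.1% of all genes. A last contrast took the difference between the TNF responses of the genotypes. No member and no gene passed it in either fit (0% by group alone and 0% with the block), with 689 and 2192 genes at an unadjusted limma p under 0.05. There edgeR also called 0 genes with and without the block, and DESeq2 called 79, none a member.

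**Figure D2:**
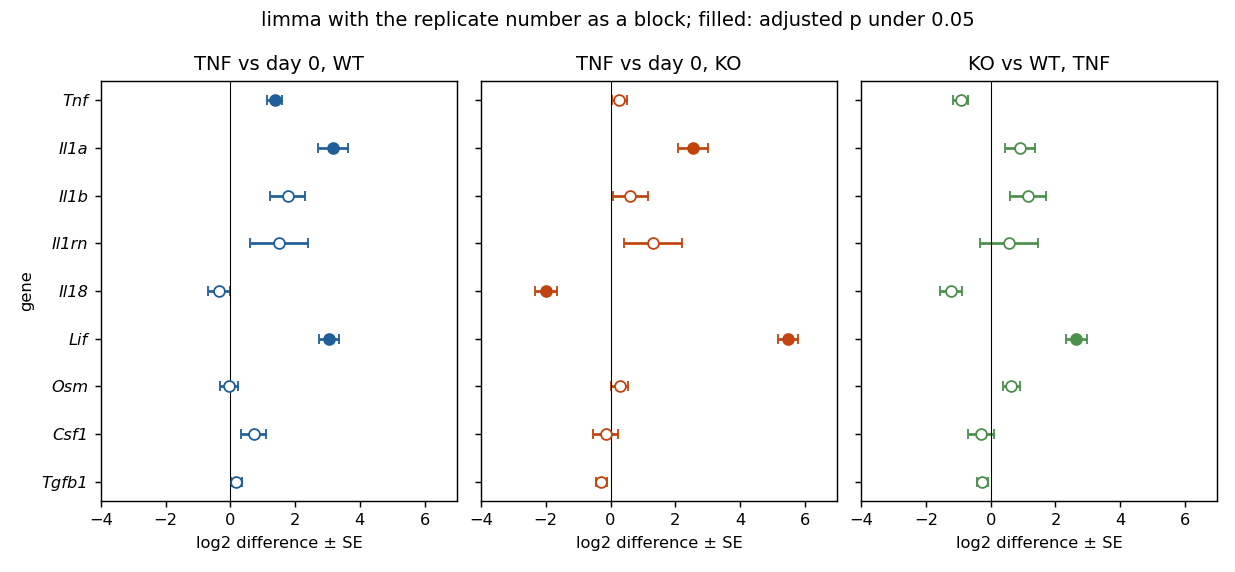
Log2 difference ± SE of each cytokine gene from limma with the replicate number as a block (2 libraries a group), for TNF against day 0 in WT, TNF against day 0 in KO, and KO against WT after TNF; filled points have an adjusted p under 0.05. Lif is filled in all 3 panels, Il1a in both TNF panels, Tnf only in the WT panel and Il18 only in the KO panel.

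Tnf encodes the cytokine that was also added as protein, so its reads give the cells' own transcript. Tnf was at 18.4 and 28.4 CPM in WT at day 0 (replicates 1 and 2, here and throughout), 38.2 and 93.0 CPM in WT after TNF, 22.3 and 29.9 CPM in KO at day 0, and 24.9 and 38.9 CPM in KO after TNF. Both WT TNF libraries lay above both WT day 0 libraries, whereas the KO groups overlapped. Within the same replicate number the WT level was 2.08-fold and 3.28-fold higher after TNF, and the KO level 1.12-fold and 1.30-fold. In WT the difference was 1.37 ± 0.50 (SE, log2, n = 2 libraries a group) with a limma adjusted p of 0.323 by group alone, and with the block its SE was 0.23 and the adjusted p 0.0182. Without replicate 2 of WT at day 0 the blocked adjusted p was 0.131, and without replicate 2 of WT after TNF it was 0.106. In KO the difference was 0.27 ± 0.50, with limma adjusted p values of 0.865 and 0.435 in the 2 fits. KO against WT after TNF gave -0.93 ± 0.23 with the block (limma adjusted p = 0.0565; 0.592 by group alone). The KO and WT TNF libraries overlapped there, 38.9 CPM in KO replicate 2 against 38.2 CPM in WT replicate 1. The difference of the responses was -1.10 ± 0.33 with the block, with a limma adjusted p of 0.169.

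Il1a, which encodes IL-1α, was among the scarcest cytokine transcripts at day 0. It had 5 and 9 reads in WT at day 0 (0.182 and 0.334 CPM), 99 and 314 reads in WT after TNF (2.78 and 13.3 CPM), 17 and 84 reads in KO at day 0 (0.608 and 3.73 CPM), and 78 and 350 reads in KO after TNF (7.91 and 18.5 CPM). The TNF libraries of each genotype lay above its day 0 libraries, and the 2 KO day 0 libraries lay above both WT day 0 libraries. On summed reads scaled to depth, the WT level rose 27.1-fold (95% counting interval 15.96 to 49.99) and the KO level 7.42-fold (5.96 to 9.32), intervals that cover counting error only. limma gave 3.16 ± 0.91 in WT (adjusted p = 0.206; 0.0115 with the block, SE 0.46) and 2.54 ± 0.91 in KO (adjusted p = 0.184; 0.0110 with the block). These values depend on the pseudocount, as the gene is low: edgeR with the block gave 4.87 in WT and 3.01 in KO. The WT call was lost without replicate 2 of WT at day 0 (limma blocked adjusted p = 0.0577) or of WT after TNF (0.106), and the KO call without replicate 1 of KO at day 0 (0.0724) or replicate 2 of KO after TNF (0.0543). At day 0 the KO minus WT difference was 1.52, with a limma adjusted p of 0.637 with the block. For TNF against day 0 DESeq2, fitted by group alone, gave adjusted p values of 3.39e-04 in WT and 0.0930 in KO.

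Il1b, the gene of IL-1β, was as low as Il1a, and its 2 libraries were further apart than those of Il1a in each group except WT after TNF (4.62-fold for Il1b and 4.80-fold for Il1a). It was at 0.109 and 0.705 CPM in WT at day 0 (3 and 19 reads), 1.07 and 4.92 CPM in WT after TNF (38 and 116 reads), 0.822 and 13.0 CPM in KO at day 0 (23 and 293 reads), and 3.35 and 10.4 CPM in KO after TNF (33 and 197 reads). The highest of the 8 libraries was therefore an untreated one, replicate 2 of KO at day 0. In WT both TNF libraries were above both day 0 libraries, but the KO groups overlapped and the same-number differences had opposite signs, 1.54 and -0.31 on the log2 scale. The WT difference was 1.77 ± 1.20 by group alone (limma adjusted p = 0.704) and missed the threshold with the block (0.0920), while edgeR with the block gave an adjusted p of 0.0369. KO minus WT at day 0 was 2.30 ± 1.20 (limma adjusted p = 1; 0.442 with the block), the largest of the 9 members in that comparison, with a ratio of summed scaled reads of 15.5 (95% counting interval 10.04 to 25.05). That interval covers counting error only, and most of the KO reads came from replicate 2. The sum of the dendritic cell markers was also highest in KO replicate 2, at 33.5 CPM at day 0 and 29.2 CPM after TNF, against 2.80 to 10.7 CPM in the other 6 libraries. All 6 markers had 3 or more reads there, as in every library but KO after TNF replicate 1. Ccr7, which made up 17.6 CPM of the sum after TNF, Flt3 and Xcr1 were each highest in these libraries. Siglech and Clec9a were not after TNF (1.37 and 0.633 CPM, against 2.47 CPM in KO day 0 replicate 1 and 1.19 CPM in WT TNF replicate 2). Zbtb46 was not at day 0 (0.711 CPM, against 1.87 CPM in WT TNF replicate 2). The neutrophil markers were highest in replicate 2 of KO at day 0, at 1001 CPM (33.7 to 836 CPM in the others; 8 of 8 markers in the table had at least 3 reads). Their part in the Il1b level was not tested.

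Il1rn encodes the IL-1 receptor antagonist. Its levels were 48.1 and 59.3 CPM in WT at day 0, 34.6 and 663 CPM in WT after TNF, 68.6 and 118 CPM in KO at day 0, and 176 and 287 CPM in KO after TNF. In KO both TNF libraries lay above both day 0 libraries, by 2.57-fold and 2.43-fold within the same replicate number. The 2 WT TNF libraries were 19.2-fold apart: replicate 1 lay below both WT day 0 libraries and replicate 2 above every other library. The same-number differences in WT were accordingly -0.47 and 3.47 on the log2 scale, and neither the WT mean difference of 1.501 (limma adjusted p = 0.794; 0.324 with the block) nor the KO one of 1.32 (0.659; 0.314) passed. The spread of the 2 WT TNF libraries enters both tests: with the block, the KO difference passed when replicate 1 or replicate 2 of WT after TNF was left out (limma adjusted p = 0.00978 and 0.00965), and the WT difference passed without replicate 1 of WT after TNF (3.32, 0.00980). KO against WT after TNF changed sign between the replicate numbers, at 2.33 and -1.20, and the mean of 0.56 became -0.74 in edgeR.

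The transcript of the antagonist exceeded those of both agonists in every library, which describes RNA and not protein. Per kilobase, Il1rn was 3.13 to 151 times Il1b and 4.44 to 94.1 times Il1a. The lowest Il1rn to Il1b ratio was in KO day 0 replicate 2 (2659 against 293 reads) and the highest in WT day 0 replicate 1, where Il1b had 3 reads. The ratio of Il1a to Il1b per kilobase was 1.72 to 2.62 in the 4 TNF libraries and 0.277 to 1.61 in the 4 day 0 libraries. The TNF and day 0 libraries thus did not overlap in this ratio, although the highest day 0 value rests on 5 and 3 reads.

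Il18 encodes a further caspase-activated member of the IL-1 family. It stood at 9.11 and 26.9 CPM in WT at day 0, 10.2 and 14.9 CPM in WT after TNF, 14.1 and 32.8 CPM in KO at day 0, and 4.67 and 5.43 CPM in KO after TNF. The 2 KO TNF libraries were the lowest of all 8 and overlapped with no other group, and the WT groups overlapped each other. In KO Il18 fell by 2.00 on the log2 scale with the block (SE 0.34, limma adjusted p = 0.00912), while by group alone the adjusted p was 0.133. DESeq2, fitted by group alone, gave an adjusted p of 0.0290. The blocked call was lost without replicate 2 of KO at day 0 (limma adjusted p = 0.0831) or of KO after TNF (0.0541). In WT the difference was -0.34 (limma adjusted p = 0.972; 0.563 with the block), with same-number values of 0.15 and -0.83. KO against WT after TNF was -1.21 ± 0.34 with the block (limma adjusted p = 0.0766), and the difference of the responses was -1.66 ± 0.48 (0.163).

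Lif encodes leukaemia inhibitory factor, a cytokine known to act on stem cells and on bone. It had 10 and 1 reads in WT at day 0 (0.364 and 0.0371 CPM) and 236 and 93 reads in WT after TNF (6.62 and 3.94 CPM). In KO it had 21 and 0 reads at day 0 (0.750 and 0 CPM) and 382 and 588 reads after TNF (38.8 and 31.0 CPM), a mean of 34.9 ± 5.48 CPM (SD, n = 2). The day 0 libraries of both genotypes overlapped, the WT TNF libraries lay above all of them, and the KO TNF libraries lay above all 6 others. On summed reads scaled to depth the rise was 27.5-fold in WT (95% counting interval 15.1 to 55.6) and 80.9-fold in KO (52.6 to 131), and after TNF the KO level was 6.06 times the WT level (5.34 to 6.89). These intervals cover counting error only and leave out the spread between libraries.

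The rise of Lif in KO was 5.48 ± 0.56 on the log2 scale by group alone (limma adjusted p = 0.00731; 5.57e-04 with the block, SE 0.31). By group alone it was lost without replicate 2 of KO at day 0 (limma adjusted p = 0.0512) or of KO after TNF (0.0562), when only the 4 libraries of the comparison were fitted (0.0524), and in edgeR (0.0614). With the block it passed without each library in turn, at 0.00174 to 0.00567. In WT the difference was 3.05 ± 0.56 (limma adjusted p = 0.0689; 0.00402 with the block), and the blocked call passed without each library in turn (0.00522 to 0.0456). As for Il1a, the size depends on the pseudocount: edgeR with the block gave 4.88 in WT and 6.78 in KO. DESeq2, fitted by group alone, gave adjusted p values of 0.00256 in WT and 1.34e-06 in KO.

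Between the genotypes after TNF, Lif was 5.86-fold and 7.86-fold higher in KO within the same replicate number. The difference was 2.64 ± 0.31 on the log2 scale with the block (limma adjusted p = 0.0180), and by group alone its adjusted p was 0.177. It did not pass in edgeR with the block (2.77, adjusted p = 0.0759), nor in limma with the block without replicate 2 of WT after TNF (0.159) or replicate 2 of KO after TNF (0.108). At day 0 the difference was 0.21 (limma adjusted p = 1). The difference of the 2 TNF responses was 2.43 ± 0.44 with the block, with a limma adjusted p of 0.106 (0.818 by group alone), so that the larger rise in KO was not shown by that test. The osteoclast markers summed higher in the KO than in the WT TNF libraries, as given above, and their part in the Lif difference was not tested.

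Osm, the neighbour of Lif and its relative, showed no such pattern. It was at 7.22 and 4.56 CPM in WT at day 0, 5.81 and 5.34 CPM in WT after TNF, 9.36 and 5.55 CPM in KO at day 0, and 12.6 and 6.28 CPM in KO after TNF. The TNF and day 0 libraries overlapped in both genotypes, and after TNF both KO libraries lay above both WT libraries. The differences were -0.04 in WT, which is 0.09 in edgeR with the block, and 0.29 in KO (limma adjusted p = 0.939 and 0.463 with the block). After TNF the KO minus WT difference was 0.63 (limma adjusted p = 0.185 with the block). Per kilobase, Osm was 37.9 and 235 times Lif in WT at day 0, 23.9 times in KO day 0 replicate 1, 1.68 and 2.59 times in WT after TNF, and 0.621 and 0.387 times in KO after TNF. Per kilobase Lif exceeded Osm only in the KO TNF libraries, whereas in CPM it also did in WT TNF replicate 1 (6.62 against 5.81 CPM).

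**Figure D3:**
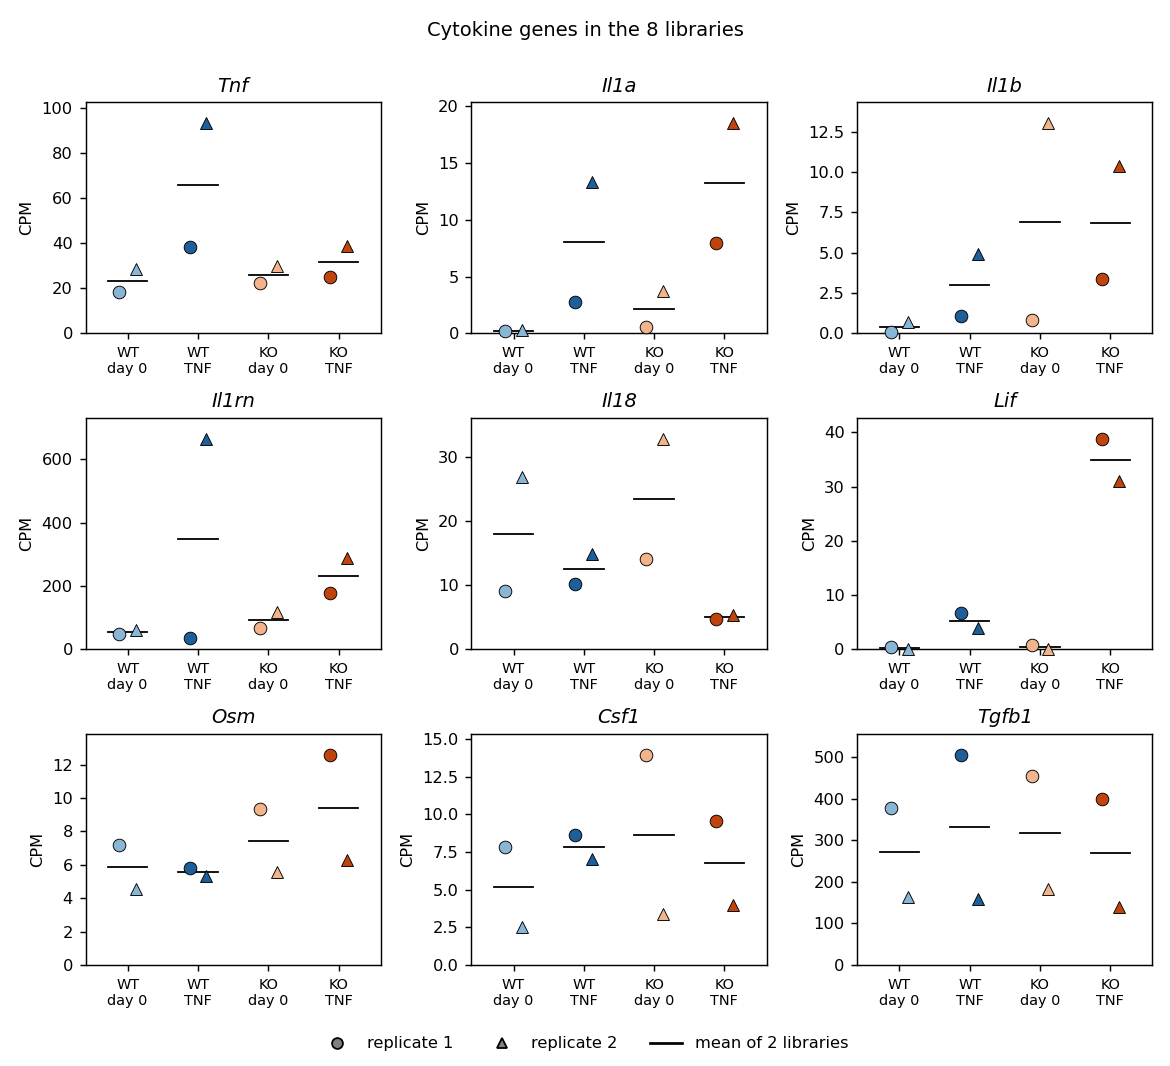
CPM of each cytokine gene in each library, 1 panel a gene with its own axis from 0, circles for replicate 1, triangles for replicate 2 and a line for the mean of the 2. Lif is high only in KO after TNF (38.8 and 31.0 CPM), Il18 is lowest there (4.67 and 5.43 CPM), and Il1rn in WT after TNF spans 34.6 to 663 CPM.

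Csf1 encodes the macrophage growth factor M-CSF. Its levels were 7.84 and 2.52 CPM in WT at day 0, 8.61 and 7.04 CPM in WT after TNF, 13.9 and 3.38 CPM in KO at day 0, and 9.54 and 4.01 CPM in KO after TNF. All 4 groups overlapped, and in CPM replicate 1 was the higher library in each (median-ratio scaling turned WT after TNF, to 0.03 for replicate 2 minus replicate 1). No contrast between groups passed: the differences were 0.72 for TNF in WT (limma adjusted p = 0.280 with the block), -0.15 for TNF in KO (0.800), 0.58 for KO against WT at day 0 (0.965) and -0.30 after TNF (0.662).

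Tgfb1, the most abundant of the 9 in most libraries, was set apart by its replicate numbers rather than by its groups. It was at 378 and 163 CPM in WT at day 0, 505 and 158 CPM in WT after TNF, 453 and 184 CPM in KO at day 0, and 399.8 and 140.1 CPM in KO after TNF. The 4 replicate 1 libraries, at 378 to 505 CPM, lay above the 4 replicate 2 libraries, at 140.1 to 184 CPM. The group differences were 0.18 for TNF in WT (limma adjusted p = 0.524 with the block), -0.29 for TNF in KO (0.254), 0.21 for KO against WT at day 0 (0.971) and -0.26 after TNF (0.381).

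A direction common to the replicate numbers was seen for every member. Tnf, Il1a, Il1b, Il1rn and Il18 were higher in replicate 2 in 4 of 4 groups, and Lif, Osm, Csf1 and Tgfb1 were higher in replicate 1 in 4 of 4 groups, except that median-ratio scaling turned Osm (0.19) and Csf1 (0.03) the other way in WT after TNF. Of all genes tested 59.2% had the same direction in all 4 groups. The replicate coefficient of the blocked fit, which was examined after the data had been seen, passed for 8 of the 9, 4 higher and 4 lower in replicate 2, against 15.8% of all genes higher and 30.4% lower. Tgfb1 was lower in replicate 2 by 1.42 ± 0.12 on the log2 scale (limma adjusted p = 8.34e-04) and Csf1 by 1.20 ± 0.28 (0.0141), values that are -1.42 and -1.20 as replicate 2 minus replicate 1. Il1b was higher by 1.91 ± 0.39 (limma adjusted p = 0.00914), Il1a by 1.37 ± 0.33 (0.0157), Il18 by 0.86 ± 0.24 (0.0275) and Tnf by 0.73 ± 0.16 (0.0128). The calls of Lif (-0.75, limma adjusted p = 0.0325) and Osm (-0.59, 0.0407) were lost in edgeR with the block (0.273 and 0.126). Il1rn, at 1.51 ± 0.63, did not pass (limma adjusted p = 0.0930). Of the 9, 3 passed when replicate 1 or replicate 2 of KO at day 0 was left out, and 5 when either was left out of WT at day 0. The scaling matters here: the median over all genes was -0.15 in CPM and 0.03 in edgeR, where the calls over all genes were 52.1% higher in place of 34.2%.

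**Figure D4:**
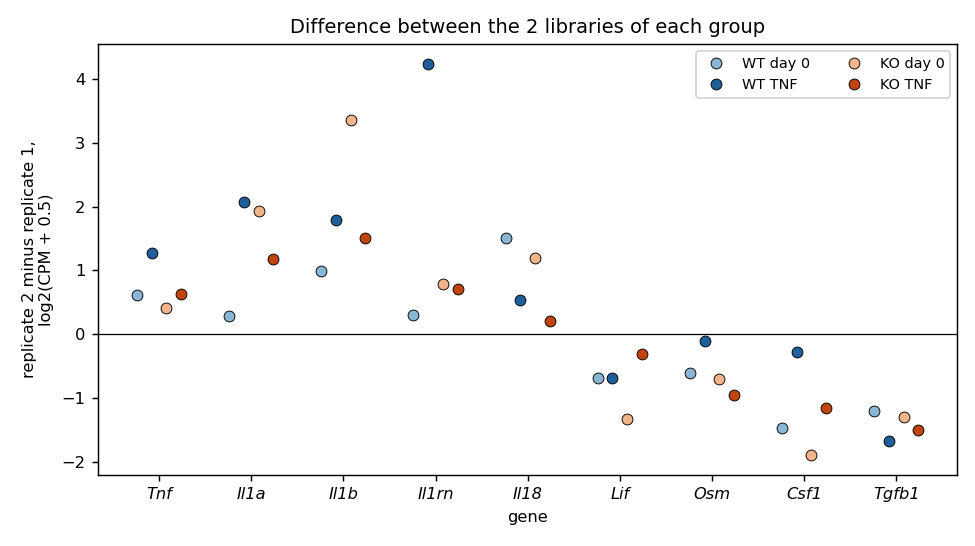
Difference between the 2 libraries of each group, replicate 2 minus replicate 1 in log2(CPM + 0.5), with 1 point per group and gene. All 4 points of Tnf, Il1a, Il1b, Il1rn and Il18 lie above 0 and all 4 points of Lif, Osm, Csf1 and Tgfb1 lie below 0, although with median-ratio scaling Osm (0.19) and Csf1 (0.03) in WT after TNF lie above it.

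Markers of other cell types moved with the replicate numbers as well. The 7 stromal and endothelial markers summed to 118 to 175 CPM in the 4 replicate 1 libraries and 6.70 to 29.6 CPM in the 4 replicate 2 libraries, with 7 of 7 at 3 or more reads in every replicate 1 library and 5 to 7 of 7 in the others. Col1a1 was at 57.3 to 84.0 CPM against 1.29 to 12.8 CPM. The endothelial markers did not share this direction. Pecam1 was higher in replicate 2 of every group, reaching 9.02 CPM in KO day 0 replicate 2 against 3.18 CPM in its replicate 1. Cdh5 was higher in replicate 2 of every group except WT after TNF. The summed neutrophil markers were higher in replicate 2 of each group, at 836 against 141 CPM in WT at day 0, 139 against 61.0 CPM in WT after TNF, 1001 against 179.9 CPM in KO at day 0 and 50.2 against 33.7 CPM in KO after TNF. The T and NK cell markers summed to 1.94 to 2.77 CPM in replicate 1 libraries and 9.497 to 26.5 CPM in replicate 2 libraries, with 1 to 4 and 4 to 7 of 8 at 3 or more reads. Cd4 was the largest part of this T and NK cell sum in every replicate 2 library. In WT after TNF it was at 18.1 CPM there, followed by Klrb1c at 8.01 CPM. Cd3d, Cd3e and Cd3g were each at 0.444 CPM or less in all 8 libraries, so these genes added little to the sum. Hba-a1 and Hbb-bs had 0 reads in all 8 libraries. Their part in the cytokine values was not tested.

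The genes through which these cytokines are released and activated were described from a list of 19, all tested. By group alone none passed in WT and 1 rose in KO. The shares of all genes called with the block, given above, were 5.54% higher and 4.71% lower in WT, 12.2% and 13.7% in KO, and 5.53% and 3.75% between the genotypes after TNF. With the block 4 rose and 0 fell with TNF in WT (median 0.66, beside -0.12 over all genes), 4 rose and 5 fell in KO (median -0.20, beside -0.10), and 2 were higher and 4 lower in KO than WT after TNF (median -0.40, beside 0.02). Casp4, a caspase that cuts gasdermin D, went from 5.503 and 16.8 CPM to 20.6 and 50.3 CPM in WT and from 8.72 and 35.6 CPM to 26.9 and 70.1 CPM in KO (1.68 and 1.27 on the log2 scale, limma adjusted p with the block 0.00784 and 0.00940). Gsdmd, the pore-forming gasdermin D itself, rose in WT from 56.9 and 58.8 CPM to 152 and 181 CPM (1.51, limma adjusted p with the block 0.00547). In KO Gsdmd rose from 52.2 and 78.3 CPM to 127 and 137 CPM (1.04, limma adjusted p with the block 0.00855). The TNF and day 0 libraries of Gsdmd did not overlap in either genotype, whereas those of Casp4 did not overlap in WT and did in KO.

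Adam17, the protease that sheds TNF, was at 334 and 438 CPM in WT at day 0, 595 and 905 CPM in WT after TNF, 333 and 553 CPM in KO at day 0 and 342 and 407 CPM in KO after TNF. With the block it rose in WT by 0.94 (limma adjusted p = 0.0266) and was lower in KO than WT after TNF, at -0.97 (0.0298), with no overlap in either case. Its partner Rhbdf2, needed for the maturation of that protease, rose in WT by 0.66 with the block (limma adjusted p = 0.0385), while the WT libraries overlapped. Nlrp3, a sensor of the caspase-1 inflammasome, was at 207 and 130 CPM in WT and 90.5 and 42.9 CPM in KO after TNF, a difference of -1.39 (limma adjusted p with the block 0.0380). Ltbp1, which binds latent TGF-β1, was the gene that passed by group alone, from 1.61 and 2.62 CPM to 62.1 and 16.9 CPM in KO, and was at 1.06 and 3.82 CPM and then 7.60 and 3.94 CPM in WT (KO difference 3.69 ± 0.77, limma adjusted p = 0.0485; 0.0152 with the block). Itgav, an integrin chain that activates latent TGF-β1, was at 537 and 311 CPM in WT and 1618 and 1920 CPM in KO after TNF (2.11, limma adjusted p with the block 0.0324). At day 0 Itgav was at 266 and 528 CPM in WT and 558 and 896 CPM in KO, also without overlap (0.92, limma adjusted p with the block 0.839). Ltbp3, another latent TGF-β binding protein, rose in KO from 64.0 and 11.6 CPM to 104.6 and 49.4 CPM, with overlap between the groups (1.37, limma adjusted p with the block 0.0479; 1.59 and 0.0549 in WT). Thbs1, thrombospondin-1, which can activate latent TGF-β1, fell in KO from 125 and 135 CPM to 51.7 and 71.0 CPM (fell by 1.096, limma adjusted p with the block 0.00576). Rhbdf1, a relative of Rhbdf2, was at 4.29 and 0.848 CPM in WT and 14.7 and 5.38 CPM in KO after TNF (1.90, limma adjusted p with the block 0.0386). At day 0 Rhbdf1 was at 2.92 and 2.26 CPM in WT and 9.65 and 2.80 CPM in KO (0.91, limma adjusted p with the block 0.839).

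Of the 15 receptor genes of these cytokines 13 were tested. By group alone 0 passed in WT and 1, Lifr, fell in KO. With the block, against the same shares of all genes (12.2% higher and 13.7% lower in KO), 1 rose and 2 fell in WT (median -0.31, beside -0.12 over all genes), 2 rose and 3 fell in KO (median -0.31, beside -0.10), and 1 was higher in KO than WT after TNF. Lifr, the receptor chain specific to LIF and some of its relatives, was at 11.9 and 7.79 CPM in WT at day 0, 2.38 and 1.19 CPM in WT after TNF, 10.5 and 11.6 CPM in KO at day 0, and 1.22 and 2.32 CPM in KO after TNF. Its TNF libraries lay below its day 0 libraries in both genotypes, where Lif itself lay above. The fall of Lifr was by 2.20 in WT (limma adjusted p = 0.0928; 0.0217 with the block) and by 2.39 in KO (0.0371; 0.00830).

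Tnfrsf1b, which encodes the second TNF receptor, was at 305 and 312 CPM in WT at day 0, 815 and 1999 CPM in WT after TNF, 340.3 and 523 CPM in KO at day 0, and 516 and 521 CPM in KO after TNF. It rose in WT by 2.05 with the block (limma adjusted p = 0.0155), and the KO TNF libraries lay between the 2 KO day 0 libraries. Il1r1, the signalling receptor of IL-1, rose in KO with the block from 0.214 and 0.666 CPM to 2.33 and 19.6 CPM, and was at 0.182 and 0.223 CPM and then 0.757 and 1.44 CPM in WT (KO difference 3.05, limma adjusted p = 0.0179). Il18rap, the accessory chain of the IL-18 receptor, fell in both genotypes, by 1.57 in WT and by 1.79 in KO (limma adjusted p with the block 0.0378 and 0.0127). Tgfbr1, a TGF-β receptor kinase, was at 248 and 261 CPM in WT and 1132 and 1778 CPM in KO after TNF, a difference of 2.48 (limma adjusted p with the block 0.0202). Its KO level at day 0 was 329.9 and 1027 CPM, and it rose in KO by 1.28 (limma adjusted p with the block 0.0385).

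All 12 regulators of cytokine mRNA decay were tested, and none passed by group alone. With the block 1 rose and 1 fell in WT (median -0.35, beside -0.12 over all genes), 0 rose and 1 fell in KO (median -0.33, beside -0.10), and 1 was higher and 0 lower in KO than WT after TNF (median 0.01, beside 0.02). Over all genes the shares were 5.54% higher and 4.71% lower in WT, 12.2% and 13.7% in KO, and 5.53% and 3.75% between the genotypes after TNF, so these counts are near or below the background. Zc3h12a, the endonuclease regnase-1 that cuts cytokine mRNAs, rose in WT from 13.3 and 7.53 CPM to 33.1 and 20.1 CPM (1.32, limma adjusted p with the block 0.0189), and was at 16.7 and 15.3 CPM and then 19.99 and 11.9 CPM in KO. Zfp36l1, which binds AU-rich elements and promotes mRNA decay, fell in WT from 46.1 and 55.9 CPM to 16.4 and 19.1 CPM, and was at 28.5 and 62.0 CPM in KO after TNF (fell by 1.496 in WT, limma adjusted p with the block 0.0158; KO minus WT after TNF 1.23, 0.0342). Its WT groups did not overlap, nor did the KO and WT libraries after TNF or at day 0, when KO was at 60.1 and 90.0 CPM. Zfp36l2, its paralogue, fell in KO from 436 and 233 CPM to 275 and 122 CPM, within overlapping groups (fell by 0.80, limma adjusted p with the block 0.0117).

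Likeness to other genes was measured as the root mean square difference of centred log2(CPM + 0.5) over the 8 libraries, with a smaller value for a closer pattern. Closest to Lif were Col27a1 (0.38), Plxna4 (0.40) and Apbb1 (0.44), while the centred values of Lif itself had a root mean square of 2.36. Tnf was closest to Mtm1 (0.14), Plekha1 (0.16) and Nfe2l2 (0.18). Il1a was closest to Ccl22 (0.48), Itgax (0.54) and Bcl2a1a (0.54), Il1b to Vnn3 (0.52), Kynu (0.56) and Nr1h3 (0.58), and Il1rn to Ptgs2 (0.46), Sh2d4a (0.64) and Snn (0.64). For Il18 these genes were Wls (0.20), Ap1s2 (0.22) and Ugcg (0.24). For Osm, Csf1 and Tgfb1 the closest genes were Ube2v1 (0.18), Ddr2 (0.20) and Zfp64 (0.11), followed by Mrpl21 and Wrnip1, by Fbxo31 and Nxn, and by Mbd6 and Mrpl14. Among the members the closest pair was Csf1 and Tgfb1 (0.45), and Il18 and Lif were the farthest apart (3.17).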

How the data were processed

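Poly-A RNA of 8 libraries was measured, 2 in each of 4 groups named by the sample titles. The deposited values are CPM, which the authors made relative to each library's total over genes. The tools HISAT2, HTSeq, fastp and edgeR and the build mm10 are named per the submitters' processing notes, without versions or settings. The CPM were whole multiples of 1 read's value (100% within 0.01), so reads were recovered.

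The test was limma 3.58.1 (R 4.3.3; lmFit, eBayes with trend, 2-sided) on log2(CPM + 0.5) by group over 12194 genes (49.9%) that reached 1 CPM in 2 or more libraries, with 4 residual degrees of freedom, Benjamini-Hochberg adjustment within each of 5 contrasts and a threshold of 0.05. Count tests on the recovered reads, edgeR 4.0.16 (quasi-likelihood) and DESeq2 1.42.0, were alternatives. In WT with TNF edgeR called 60 genes by group alone and 1163 with the block, and in KO 497 and 3074. Other alternatives were the block, the pseudocount, the filter, median-ratio scaling, the libraries of the contrast only, and each library left out, when a lone library is assumed to vary like the others.

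The series describes independent experiments, and no label says that the replicate number marks one. Same-numbered libraries deviated together in 6 of 6 pairs of groups (r 0.577 to 0.805 across genes), so the numbers were taken as pairing the libraries before the fits' calls were compared. No library was counted as a repeat of another.

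The members and lists were chosen with earlier results of these data known. All 9 members are named whatever their values, with up to 4 genes per list and contrast of largest log2 difference among those called, and the 3 genes closest to each member. Of the table's symbols, 23350 matched GENCODE M21, from which positions and exon lengths were taken, and 8 of 9 members matched the RefSeq promoter table.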

Additional observations from a re-analysis of the deposited data

Results flagged for a closer look

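In 3 cytokine genes both same-number pairs had KO above WT at day 0 and KO below WT after TNF. The genes were picked by these signs, whatever the size of the differences. The share of all genes with the same signs was not computed, so the count does not mark a trait of the cytokine genes. For Tnf the pairs were 0.27 and 0.07 on the log2 scale at day 0 and -0.61 and -1.25 after TNF, and the difference of the TNF responses was -1.10 (limma adjusted p = 0.169 with the block). For Il18 they were 0.60 and 0.28 at day 0 and -1.04 and -1.38 after TNF, and the difference of the responses was -1.66 (limma adjusted p = 0.163 with the block). For Tgfb1 they were 0.26 and 0.17 at day 0 and -0.34 and -0.17 after TNF, and the difference of the responses was -0.47 (limma adjusted p = 0.369 with the block). None of the 3 passed the test of that difference. The signs within a pair rest on 1 library a group, and the KO and WT libraries of Tnf and Tgfb1 overlapped at both points.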

How the results depend on the processing

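In limma the replicate number as a block decided most calls. DESeq2, fitted without it, called Il1a and Lif for TNF in WT and Lif and Il18 for TNF in KO. Counts of the 9 cytokine genes called were 0 by group alone and 3 with the block for TNF in WT, 1 and 3 for TNF in KO, and 0 and 1 for KO against WT after TNF. Over all genes the limma shares were 1.18%, 5.1% and 0.0082% by group alone and 10.3%, 25.9% and 9.28% with the block. The pairing with median-ratio scaling gave 3, 3 and 1, against 9.57%, 26.3% and 8.77% of all genes. edgeR with the replicate block gave 4, 3 and 0, against 9.54%, 25.2% and 6.65% of all genes. For TNF in KO edgeR by group alone gave 0, with 497 of 12194 genes called, as did the libraries of that contrast alone. DESeq2 gave 2 and 2 for TNF in WT and KO, with 874 and 1701 of 12194 genes called. For the replicate coefficient 8 were called. With 1 library left out the counts were 0 to 4 for TNF in WT, 0 to 4 for TNF in KO, 0 to 2 for KO against WT after TNF and 3 to 7 for the replicate coefficient. The cause was not tested. At day 0 and for the difference of the responses the count was 0 under every alternative listed that could be fitted.

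Of 519 single-gene values under alternatives that kept all libraries, 482 kept their direction and side of the threshold, 21 passed it newly, 8 no longer passed and 8 changed sign. The sign changes were Osm with TNF in WT, at 0.062 with median-ratio scaling, with or without the block, 0.044 in edgeR, 0.094 in edgeR with the block and 0.052 in DESeq2, and Il1rn in KO against WT after TNF, at -0.74 in edgeR, -0.14 in edgeR with the block and -0.75 in DESeq2. Values that changed sign with 1 library left out ranged, for TNF in WT, from -0.62 to 3.62 (Il1rn), -1.10 to 0.42 (Il18), -0.36 to 0.28 (Osm), -0.0083 to 1.46 (Csf1) and -0.65 to 1.02 (Tgfb1). For TNF in KO they ranged from -0.052 to 0.58 (Tnf), -1.06 to 2.29 (Il1b), -0.19 to 0.76 (Osm), -1.10 to 0.80 (Csf1) and -1.04 to 0.47 (Tgfb1). For KO against WT at day 0 the ranges were -0.14 to 0.48 (Tnf), -0.056 to 1.55 (Il1rn), -0.31 to 1.20 (Il18), -0.45 to 0.88 (Lif), -0.046 to 0.66 (Osm), -0.37 to 1.52 (Csf1) and -0.44 to 0.87 (Tgfb1). After TNF they were -0.13 to 1.95 (Il1a), -1.56 to 2.68 (Il1rn), -0.92 to 0.31 (Csf1) and -1.09 to 0.58 (Tgfb1). For the difference of the responses they were -1.65 to 0.43 (Il1a), -2.83 to 0.53 (Il1b), -2.30 to 1.94 (Il1rn), -0.15 to 0.80 (Osm), -1.83 to 0.072 (Csf1) and -1.31 to 0.37 (Tgfb1). Depth limits Lif, Il1a and Il1b at day 0, where single libraries held 0 to 21 reads of Lif, 5 to 84 of Il1a and 3 to 293 of Il1b.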

Other observations

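Of 36 other macrophage cytokine genes 26 passed the filter on low values. With the replicate block 3 rose and 2 fell with TNF in WT (median 0.46 on the log2 scale, beside -0.12 over all genes tested), 3 rose and 8 fell in KO (median 0.22, beside -0.10), and 0 were higher and 3 lower in KO than WT after TNF (median -0.19, beside 0.02). Over all genes the shares called with the block were 5.54% higher and 4.71% lower in WT, 12.2% and 13.7% in KO, and 5.53% and 3.75% between the genotypes after TNF. By group alone the counts were 0 in WT, 0 higher and 3 lower in KO, and 0 between the genotypes after TNF. Il1f9, a member of the IL-1 family, rose in WT from 0.219 and 1.45 CPM to 15.1 and 60.0 CPM and in KO from 0.0715 and 1.69 CPM to 13.8 and 11.2 CPM (4.70 and 3.53 on the log2 scale, limma adjusted p with the block 0.00611 and 0.00711). Tgfb3, a relative of Tgfb1, fell in both genotypes, from 8.56 and 4.38 CPM to 0.869 and 1.19 CPM in WT and from 10.5 and 9.55 CPM to 1.12 and 0.686 CPM in KO (limma adjusted p with the block 0.0149 and 0.00266; by group alone 0.0881 and 0.0189). Tnfsf14, the cytokine LIGHT, fell by 1.78 in WT and by 2.56 in KO (limma adjusted p with the block 0.0349 and 0.00553). Tnfsf15, a further TNF family ligand, rose in WT from 0.0729 and 0.816 CPM to 1.15 and 13.6 CPM (2.47, limma adjusted p with the block 0.0320). Il16 fell in KO from 23.6 and 44.4 CPM to 5.38 and 4.85 CPM (fell by 2.55, limma adjusted p with the block 0.0425). Igf1, insulin-like growth factor 1, was at 639 and 800.1 CPM in WT and 235 and 158 CPM in KO after TNF, and Ebi3, a subunit of IL-27, was at 46.6 and 35.8 CPM in WT and 16.03 and 12.4 CPM in KO. The KO libraries lay below the WT libraries for both genes (-1.89 and -1.501 on the log2 scale, limma adjusted p with the block 0.0272 and 0.0239). Tnfsf9, the ligand of 4-1BB, was at 12.6 and 9.12 CPM in WT and 4.77 and 2.43 CPM in KO after TNF (-1.52, limma adjusted p with the block 0.0331).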
